A study of Homo sapiens with 2 samples.

Results

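The 2036 contact domains described here were of middle length and had no loop joining their start to their end. A contact domain is a stretch of a chromosome whose parts touch one another more often than they touch the sequence around it. The 2036 were taken from the 3711 domains that the authors' table lists on chromosomes 1 to 21, out of 3845 on all chromosomes. A domain was taken when it was over 100 kb and under 700 kb long, held no smaller listed domain, and had no corner loop. A corner loop is a listed loop with one anchor centre within 50 kb of the domain's start and the other within 50 kb of its end, so that it lies at the corner of the square that the domain forms on a contact map. Of the 3711 domains, 391 were 100 kb or shorter and 326 were 700 kb or longer, and 214 of the 2994 between these limits held a smaller domain. Of the 2780 that remained, 744 had a corner loop and 2036 (73.2%) had none, while 75.6% of all 3711 domains had none. The domains were thus chosen by their length and by the loop and domain calls themselves, so the lack of a corner loop is not itself a result, and the 744 domains with one serve below as a comparison.

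The map was made by in situ Hi-C in HEK293T cells, an established line derived from human embryonic kidney. The cells of both libraries were untreated apart from formaldehyde fixation, chromatin was cut with MboI, and the joined fragments were sequenced. The 2 libraries are labelled as replicates 1 and 2 of 1 group, with no control or second condition, and whether separate cultures were used is not stated. The 3 deposited tables (compartment scores, domains and loops) pool both libraries in hg19 coordinates, so no value here has a replicate error and differences between sets of domains are given as descriptions, without a test.

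In mammalian cells many corner loops join a pair of binding sites of the insulator protein CTCF that face each other. The ring-shaped cohesin complex is thought to extrude chromatin until CTCF stops it on either side, which leaves a point of frequent contact between the ends of the domain. Domains without such a point are known too, and some follow blocks of active (A) or inactive (B) compartment chromatin. The number of read pairs is unknown here. The contacts counted in the pixel of each of the 1507 listed loops, of which 1471 lay on chromosomes 1 to 21, ran from 13 to 349 with a median of 74, and a loop too weak for the caller is not in the list.

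Most of the domains without a corner loop had no loop anchor at all at their ends or inside. This held for 1392 of the 2036 (68.4%, 95% Wilson interval 66.3 to 70.4%), against 64.9% of all 3711 domains and 57.5% (53.9 to 61.0%) of the 744, corner loops not counted. Wilson intervals cover counting error only and treat domains as independent, which neighbours are not. Loops crossed 813 of the 2036 from side to side (39.9%, against 39.7% of all 3711 and 37.9% of the domains with a corner loop). Of the 1392, 565 were crossed by a loop that started and ended outside, and 827 (40.6% of the 2036) had no loop at an end, inside or across. The crossing loops were nearly all very long: 548 of the 565 domains were crossed only by loops over 2 Mb, and 17 by a shorter one. Of all 3711 domains, 38.6% had no loop at an end, inside or across once corner loops were set aside, as did 35.2% of the 744 domains with a corner loop. For the 827 domains, the nearest anchor lay a median of 570 kb from either end (quartiles 245 and 1525 kb). It was over 1 Mb away for 294 of them (35.6%).

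A loop at exactly 1 end was found in 551 domains (27.1%, 25.2 to 29.0%). With 10 kb in place of 50 kb at the ends of the same domains, the share was 10.9%. The share over all 3711 domains was 29.1%, close to that of these domains, and it was 34.1% (30.8 to 37.6%) in the domains with a corner loop, corner loops not counted. The loop lay at the start, the end with the lower coordinate, in 277 domains and at the other end in 274. Separate loops stood at both ends of 79 domains (3.88%, 3.12 to 4.81%), against 5.44% of all 3711 and 8.20% (6.44 to 10.4%) of those with a corner loop. An anchor in the interior only, over 50 kb from both ends, was found in 14 domains. Thus loops at ends were no more frequent in these domains than in the whole list, and the share with loops at both ends was lower.

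**Figure D1:**
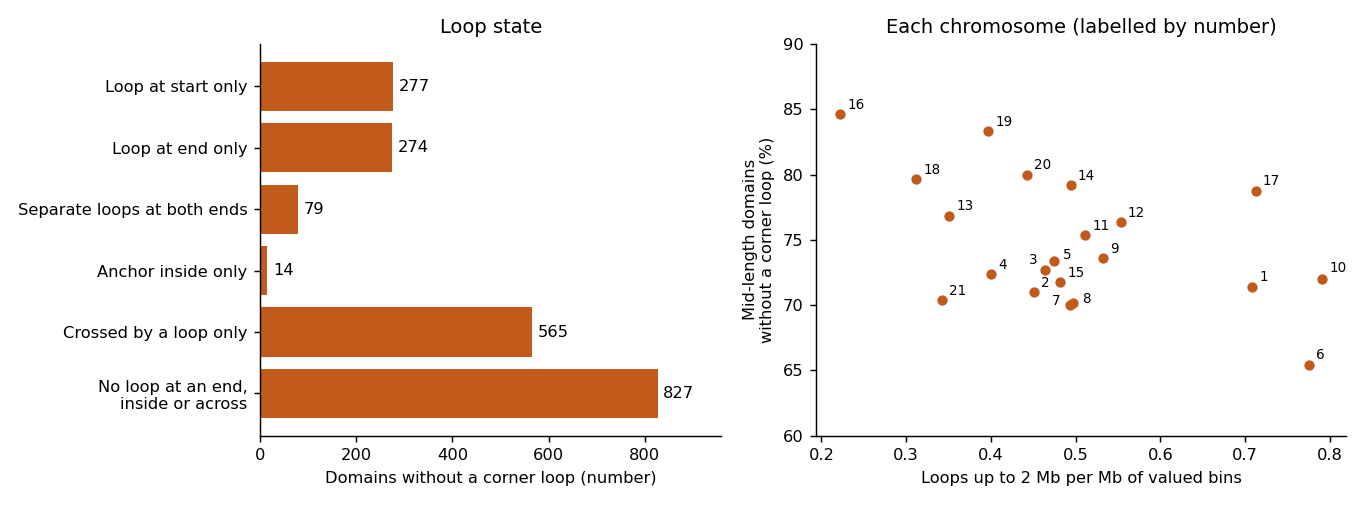
Left, number of the 2036 domains without a corner loop in each loop state, each domain counted once; right, for each of 21 chromosomes, the share of mid-length domains without a corner loop (vertical axis, percent, not starting at 0) against the number of loops up to 2 Mb per Mb of bins with a compartment score (horizontal axis). Domains with no loop at an end, inside or across (827) were the largest class, and the share without a corner loop ran from 65.4% on chromosome 6 to 84.6% on chromosome 16.

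Most loops at these ends ran away from the domain, and the rule itself leaves out any loop that joins its ends. There were 653 loops at these ends, 44.4% of the 1471. They formed 824 pairs of a loop and a domain, since 1 loop can reach the ends of several domains. In 577 pairs (70.0%) the loop ran outward, away from the domain. Of these outward pairs, 383 (66.4%) were the corner loop of another listed domain, 123 others had their far anchor within 50 kb of a listed domain end, and 71 had it at no listed end. In the same way, 282 of the 748 corner loops of mid-length domains (37.7%) also had an anchor at the end of a domain that lacked one, which involved 309 such domains. Outward end loops were found in 477 domains (23.4%, 21.6 to 25.3%), against 25.5% of all 3711 and 30.1% (26.9 to 33.5%) of the domains with a corner loop. Among domains with any end loop, corner loops not counted, 477 of 630 had an outward one. The counts were 948 of 1283 over the whole list and 224 of 315 with a corner loop, so running outward was not particular to these domains.

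Loops that started at one end and passed beyond the far end were fewer. They made up 200 pairs (24.3%) and were found in 177 domains (8.69%, 7.55 to 10.0%). The share was 10.3% over all 3711 domains and 17.2% (14.7 to 20.1%) in the domains with a corner loop. For 31 of the 200 pairs the loop was the corner loop of a listed domain that enclosed the shorter one, for 112 the far anchor lay at another listed end, and for 57 at none. The remaining 47 pairs (5.70%) had their far anchor inside the domain.

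By median, the loops at these ends were longer than corner loops and held fewer contacts. Their anchors were a median of 320 kb apart, with 72 contacts and 2.75 times the number expected from the donut, the ring of pixels around the loop. The 748 corner loops of mid-length domains spanned a median of 220 kb, with 84 contacts and 2.62 times the donut expectation. Loops that passed the far end were the longest of the end loops, at a median of 550 kb with 65 contacts, against 300 kb and 73 contacts for outward loops and 230 kb and 79 contacts for those ending inside. Contact counts in Hi-C fall with distance, and these loops differed in length. The rule favours this order, since a corner loop is about as long as its domain, while the length of an end loop has no limit. The sets also overlapped, since 282 of the 748 corner loops were end loops of a domain without one. Of the 709 ends that had an anchor, the nearest lay a median of 17.5 kb away, within 10 kb at 241 ends (34.0%) and over 25 kb away at 215.

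A single loop was usual. Of the 630 domains with a loop at an end, 473 had 1 loop, 129 had 2, 24 had 3 and 4 had more. A 500 kb domain on chromosome 8 (13560001 to 14060000) had 4 at its start and none at its other end. Outward from it ran a loop of 94 contacts (2.96 times the donut expectation, exact Poisson interval 2.39 to 3.62) that was the corner loop of the neighbouring domain. Longer outward loops held 50 and 30 contacts. The fourth, with 62 contacts (2.84 times, 2.18 to 3.65), passed the far end, its anchor centre lying 65 kb beyond it. A 205 kb domain on chromosome 10 (28700001 to 28905000) also had 4, a loop of 151 contacts at its start and loops of 130, 100 and 97 contacts at its end, all running outward. A 265 kb domain on chromosome 1 (22995001 to 23260000) lay between corner loops of its neighbours, with 72 contacts on one side and 126 and 95 on the other.

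**Figure D2:**
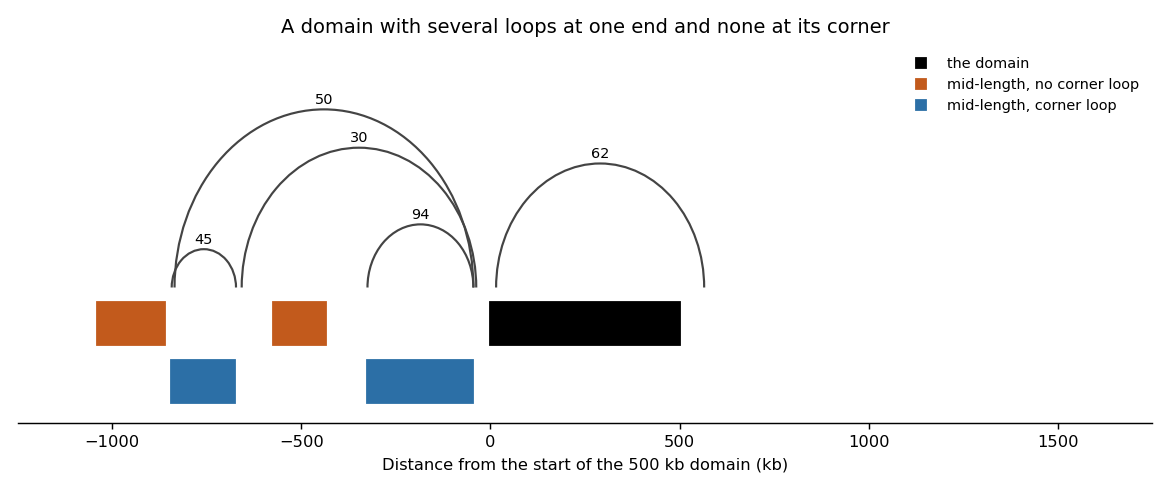
Map of the region around the 500 kb domain of chromosome 8, with distance from the domain's start in kb on the horizontal axis; blocks are listed domains (vertical offset only separates them), arcs join the anchor centres of listed loops, and numbers on arcs are observed contacts. The domain (black) has 4 loops at its start, 3 running to the left and 1 passing its far end by 65 kb, and none joining its ends.

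The end loops with the most contacts were corner loops of neighbours. On chromosome 4, the domains at 183855001 to 183980000 and 184200001 to 184340000 lay on either side of a loop of 214 contacts (2.92 times the donut expectation, 2.55 to 3.34), the corner loop of a domain between them. A further loop of 97 contacts started at the first domain's start, enclosed both the first domain and that middle one, and ended beside the start of the second. A loop of 195 contacts stood at the start of the domain at 242050001 to 242175000 of chromosome 1. Those of 180 and 170 contacts did so at 32970001 to 33080000 of chromosome 6 and at 8605001 to 8870000 of chromosome 8. They too ran outward as corner loops of a neighbour. All of these domains were 265 kb or shorter. The loops of 195, 180 and 170 contacts spanned 210, 70 and 50 kb. They held 2.41, 2.11 and 2.07 times the donut expectation, below the median of 2.75 for loops at these ends. The most contacts thus did not mean the highest enrichment.

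Loops wholly inside were rare. They were found in 49 domains (2.41%, 1.83 to 3.17%), against 3.91% of all 3711 domains and 2.82% (1.85 to 4.28%) of those with a corner loop. The 3711 include domains that hold smaller ones and domains of 700 kb or longer, so their share is not a like comparison. Longer domains had such loops more often: 0.881% of domains up to 300 kb and 4.82% of longer ones. With a corner loop these shares were 0.204% and 7.87%. There were 51 loops wholly inside, with a median span of 220 kb, or 62.3% of the length of the domain around them, and those domains had a median length of 420 kb. The 245 kb domain at 46525001 to 46770000 of chromosome 19 was the only one with more than 1. Its 3 loops spanned 50, 110 and 180 kb, with 111, 113 and 106 contacts, and had anchors in the interior between 46570001 and 46590000. The first joined the start to that place, the second ran from it to a further anchor inside (46690001 to 46700000), and the third ran from it to the end.

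The limit of 50 kb separated few borderline cases. For each domain, the larger of a loop's distances to the start and to the end was taken for the loop that came nearest to being at the corner. It was over 50 and up to 60 kb for 14 of the 2036 domains, over 60 and up to 75 kb for 15, over 75 and up to 100 kb for 13, and over 500 kb for 1301. The nearest were domains on chromosome 9 (101105001 to 101485000) and chromosome 14 (81685001 to 81930000), both at 52.5 kb. Among the domains with a corner loop, 419 had it within 10 kb of both ends, and 16 between 40 and 50 kb, among them domains on chromosome 1 (43425001 to 43535000) and chromosome 2 (71080001 to 71195000) at exactly 50 kb. At the length limits, 47 domains of 105 kb were inside the range and 80 of 100 kb, likewise with no corner loop and no smaller domain, just outside. In the same way 3 of 695 kb were inside and 3 of 700 to 705 kb outside.

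The caller's score, the authors' own value for how well a square stands out, was lower in these domains than in those with a corner loop. Scores ran from 0.265 to 1.86, with a median of 1.18 and quartiles of 1.03 and 1.36. With a corner loop the range was 0.379 to 1.86, the median 1.40 and the quartiles 1.23 and 1.58. The ranges overlapped almost wholly, but the median was lower on 21 of 21 chromosomes. Lengths were alike, with medians of 230 and 220 kb. Score and loop calls come from the same contacts, so neither is independent of the other.

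Conversely, the share of mid-length domains without a corner loop was lower at higher scores. It was 97.1% below a score of 0.8, 90.5% from 0.8 to 1, 84.3% from 1 to 1.2, 72.0% from 1.2 to 1.4, 57.8% from 1.4 to 1.6 and 41.5% above that. In that highest band 112 domains had none and 158 had one. Loops at other places changed less with the score: among the domains without a corner loop, the share with a loop at exactly 1 end was 14.7% in the lowest band, 32.4% from 1.4 to 1.6 and 28.6% in the highest.

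The best-scoring domains differed in loop state. The highest score, 1.86, belonged to a 250 kb domain on chromosome 18 (18510001 to 18760000) with no loop at an end, inside or across, and with no listed domain for 7990 kb before it. Whether reads can be mapped to that stretch was not examined. Scores of 1.84 and 1.83 belonged to domains on chromosome 3 (149680001 to 149930000) and chromosome 4 (156320001 to 156715000), each with a neighbour's corner loop at its end, of 102 and 107 contacts. Next came a 235 kb domain on chromosome 14 (50335001 to 50570000, score 1.82) with no loop. A 255 kb domain on chromosome 9 (117160001 to 117415000, 1.81) had no loop at an end. The 9 loops that crossed it were those of 37260 to 38680 kb that met at 1 anchor, described under other observations. One on chromosome 10 (112065001 to 112320000, 1.81) had a neighbour's corner loop at its start. Further domains with a high score and no loop were those at 69170001 to 69340000 of chromosome 16 (1.80), 62315001 to 62550000 of chromosome 13 (1.80) and 90425001 to 90715000 of chromosome 14 (1.79).

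The lowest scores belonged to long domains. The lowest, 0.265, was that of a 525 kb domain on chromosome 2 (112815001 to 113340000), which filled the space between corner loops of 127 and 77 contacts on either side of it and was 15 and 5 kb from its neighbours. The next was 0.291 at 149020001 to 149365000 of chromosome 1, with a loop of 20 contacts at its end, then 0.378 at 22835001 to 23250000 of chromosome 15. Scores of 0.385 (chromosome 13, 112505001 to 113095000), 0.434 (chromosome 11, 60545001 to 61030000) and 0.447 (chromosome 2, 106705001 to 107195000) followed. The last 4 had no loop at an end or inside. All of the lowest 6 were between 345 and 590 kb long, lengths at which the list holds lower sign scores, as follows.

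The list changed its character at a length of 300 kb. Each domain carries a pair of sign scores (columns upSign and loSign) and a pair of variance scores (uVarScore and lVarScore), and the file does not define them. Among all 2310 listed domains up to 300 kb, no sign score was under 0.5 and no variance score over 0.164. Among the 1535 longer ones, sign scores went down to 0.4, variance scores up to 0.444, and 616 domains had a sign score under 0.5. This is a property of the whole list.

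The step fell mostly on the domains without a corner loop. Of the 2036, 380 (18.7%, 17.0 to 20.4%) had a sign score under 0.5, against 15.7% of all 3711 and 4.44% (3.18 to 6.16%) of those with a corner loop. All 380 were among the 788 longer than 300 kb, of which they made up 48.2%, while 33 of the 254 longer domains with a corner loop had one. Numbers were higher beyond the step: 61 of the domains without a corner loop were over 260 and up to 280 kb long, 41 over 280 and up to 300 kb, 110 over 300 and up to 320 kb, and 73 over 320 and up to 340 kb. Their median score went from 1.36 just below 300 kb to 1.09 just above.

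The scores of longer domains differed with the sign scores, which are not independent of the caller score. Over the 2036 domains, Spearman's rho with the caller score was 0.631 for upSign and 0.652 for loSign. A split by sign score is thus in part a split by score. The median score was 1.21 in the 1248 domains up to 300 kb and 1.13 in the 788 longer ones. Among the longer, it was 0.945 for the 380 with a sign score under 0.5 and 1.30 for the 408 with both at 0.5 or above. It was 1.31 for the 317 of these whose variance scores also stayed within the highest value of the shorter domains. For domains with a corner loop it was 1.40 up to 300 kb and 1.41 above. Close to the step their median was lower beyond it as well, 1.51 from 250 to 300 kb and 1.41 from 300 to 350 kb, against 1.34 and 1.11 without a corner loop. Both sign scores reached 0.7 in 150 domains without a corner loop (7.37%, 6.31 to 8.58%), against 12.2% of all 3711, and in 237 with one (31.9%, 28.6 to 35.3%).

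**Figure D3:**
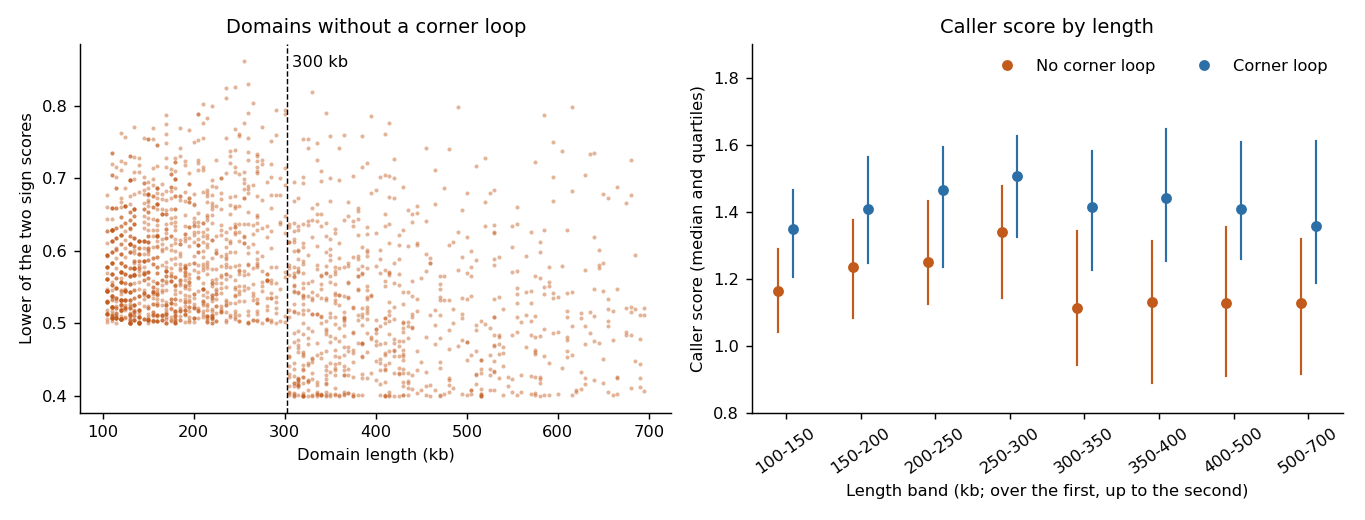
Left, the lower of the sign scores of each domain without a corner loop against its length in kb, with a dashed line at 300 kb; right, median and quartiles of the caller score in bands of length for domains without (orange) and with (blue) a corner loop, on an axis that starts at 0.8. No sign score lies under 0.5 up to 300 kb, and 380 of 788 longer domains have one; the median score of domains without a corner loop is 1.34 from 250 to 300 kb and 1.11 from 300 to 350 kb.

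The sign scores were unequal where a loop stood at 1 end. With a loop at the start only, upSign had a median of 0.673 and loSign of 0.597, and upSign was the higher in 188 of 277 domains (67.9%, 62.2 to 73.1%). With a loop at the end only, the medians were 0.579 and 0.684, and upSign was the higher in 73 of 274 (26.6%, 21.8 to 32.2%). The direction turned with the side of the loop. The median difference, upSign minus loSign, was above 0 on 18 of 21 chromosomes for loops at the start and below 0 on 19 of 21 for loops at the end.

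Domains without an anchor showed no such lean. Among the 1392 with none at an end or inside, the medians were 0.603 and 0.598, and upSign was the higher in 50.8% (48.2 to 53.4%). The share was 41.8% (31.5 to 52.8%) in the 79 domains with loops at both ends and 51.6% (48.0 to 55.2%) in those with a corner loop. The caller scores of domains with a loop at the start only and at the end only had the same median, 1.22. The lean was larger in domains up to 300 kb, with upSign the higher in 132 of 174 with a loop at the start and 38 of 173 with one at the end, than in longer ones, with 56 of 103 and 35 of 101. In the longer ones the intervals were 44.8 to 63.7% and 26.1 to 44.3%, so no lean could be read with the loop at the start.

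The lean was largest where the loop passed over the domain. Where all end loops of a domain passed its far end, upSign was the higher in 53 of 62 domains with the loop at the start (85.5%, 74.7 to 92.2%) and in 4 of 54 with the loop at the end (7.41%, 2.92 to 17.6%). Where the loops ran outward, the counts were 118 of 193 (61.1%, 54.1 to 67.7%) and 58 of 181 (25.7 to 39.2%). Loops of both kinds thus leaned the same way. The sets differed in length, and the lean was larger in shorter domains. Of the 177 domains with any loop passing the far end, 135 were up to 300 kb long, against 309 of the 477 with any outward loop. Whether length accounts for the difference between the kinds was not tested. Where the loop ended inside, there were 10 and 24 domains and no lean could be read. Beside a listed neighbour but with no loop, no lean of this kind was seen. There upSign was the higher in 29 of 68 domains sharing their start (42.6%) and 47 of 83 sharing their end (56.6%). These sets were small, and their shares tilted the other way. The loop and the sign scores were called on the same contacts, and whether a loop's own pixels enter the sign scores was not tested.

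**Figure D4:**
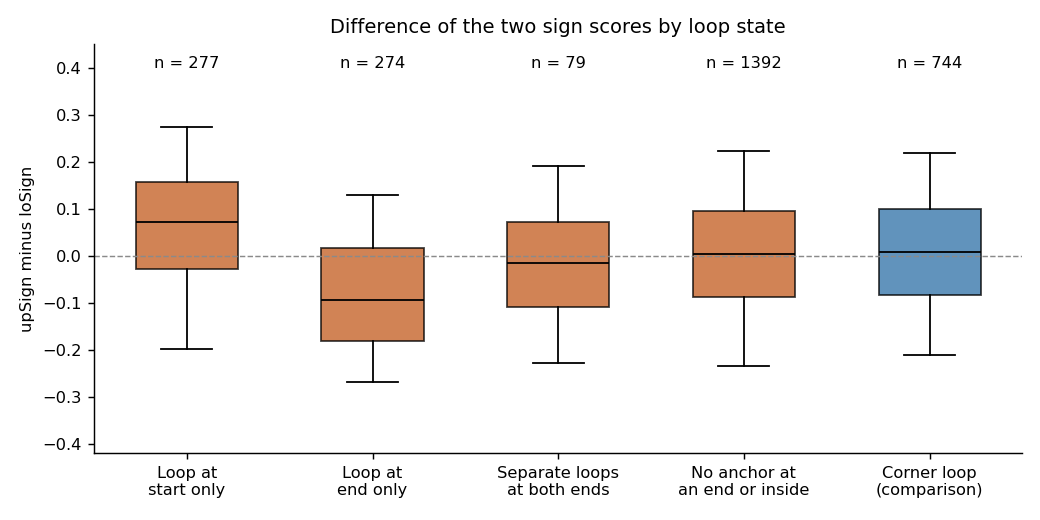
Difference upSign minus loSign (no unit) by loop state; boxes are quartiles, lines in them medians, and whiskers the 5th and 95th percentiles, with the number of domains above. Domains with a loop at the start only lie mostly above 0 (median 0.07), those with a loop at the end only mostly below 0 (median -0.09), and the other sets are centred near 0.

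The compartment score was used by its sign, as deposited, in the 1 Mb bin that holds the middle of the domain. Neither the labels nor the files say which sign marks the active compartment. Of the 2036 domains, 1331 lay in positive bins (65.4%, 63.3 to 67.4%), against 65% of all 3711 domains and 67.1% (63.6 to 70.4%) of those with a corner loop, while 50.7% of bins were positive. Positive bins held 0.974 such domains per Mb and negative bins 0.531, a ratio of 1.83, and the ratio for domains with a corner loop was 1.98. On chromosomes 5, 11, 13 and 14 a few bins carry most of the score, and on chromosome 4 the sign follows the arms. Without those 5 chromosomes the densities were 1.09 and 0.485 per Mb, the ratio 2.24 (2.34 with a corner loop), and positive bins were the denser on 16 of 16 chromosomes. The domains without a corner loop were thus spread over the signs much as the whole list was.

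Within positive bins the domains were shorter. Outside those 5 chromosomes the median length was 210 kb in positive and 282.5 kb in negative bins, against 200 and 240 kb for domains with a corner loop. A sign score under 0.5 was found in 14.3% of domains in positive bins and 26.9% of those in negative bins. With a corner loop these shares were 2.86% and 4.19%. Only domains over 300 kb had such a score, and domains in negative bins were longer. Among domains over 300 kb on all 21 chromosomes, 201 of 465 in positive bins and 179 of 323 in negative bins had one. Outside those 5 chromosomes, domains were also ranked by the compartment score of their bin within the chromosome. In 5 equal classes of bins from the lowest scores to the highest, the median lengths were 320, 265, 255, 210 and 210 kb. Neither the caller score nor the share without a corner loop followed that order. Median scores lay between 1.16 and 1.19 in all of these classes, and the shares were 77.3, 74.4, 68.6, 72.1 and 74.5%.

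A smaller share of the domains without a corner loop stood directly beside another domain. An end counted as shared when the facing end of another listed domain lay within 10 kb. This held for at least 1 end of 292 domains (14.3%, 12.9 to 15.9%), against 17.7% of all 3711 and 22.7% (19.8 to 25.9%) of domains with a corner loop. The share was lower than with a corner loop on 18 of 21 chromosomes. Both ends were shared in 6 domains (0.295%, 0.135 to 0.641%), against 0.97% of all 3711 and 2.55% (1.64 to 3.95%) with a corner loop. A wider limit gave the same order, with 38.4% and 52.8% within 25 kb and 57.6% and 68.4% within 50 kb, whereas at 0 kb too few remained to compare, 4 domains and 1.

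The space to the next listed domain was wider as well. On each side, the gap had a median of 105 kb (quartiles 35 and 425 kb), against 70 kb (20 and 260 kb) beside domains with a corner loop. Beside all 3711 domains the median was 95 kb. Gaps over 500 kb made up 22.3% of sides, against 14.4% with a corner loop and 19.6% over the list. On both sides at once they were found for 106 domains (5.21%) without and 14 (1.88%) with a corner loop, and for 4.1% of all 3711. The 2036 domains make up 54.9% of that list, so its values partly restate theirs. The longest gap, 32565 kb, lay before a 695 kb domain on chromosome 9 (70950001 to 71645000). Gaps were taken from the listed domains alone, and stretches to which no reads can be mapped were not set apart.

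**Figure D5:**
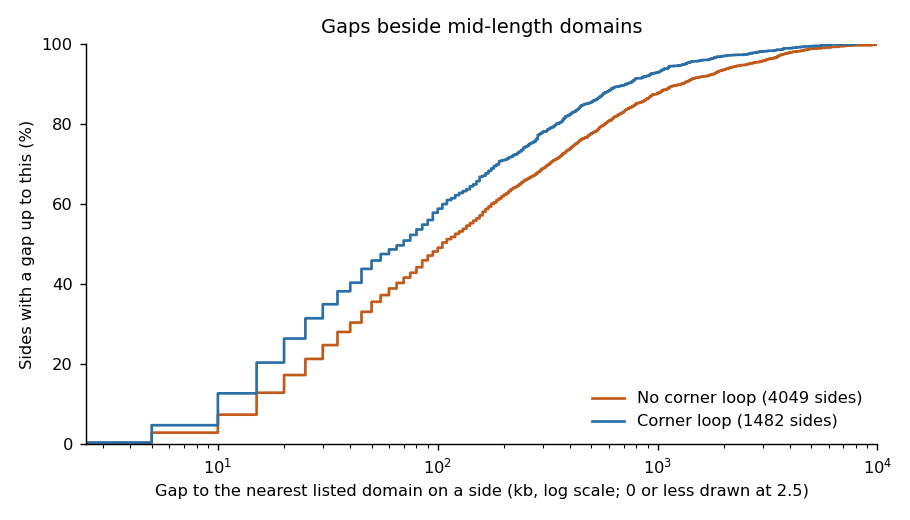
Cumulative share of sides (vertical axis, percent) with a gap to the nearest listed domain up to the value on the horizontal axis (kb, log scale), for the 4049 sides of domains without and the 1482 sides of domains with a corner loop that have a listed domain beyond them. The curve for domains without a corner loop lies to the right, with medians of 105 and 70 kb.

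Where an end was shared, neighbours of the same kind were the largest group, but fewer than their share of the list. Of the 302 neighbours at shared ends, 132 (43.7%) were mid-length domains without a corner loop, although these made up 54.9% of the list. A further 71 (23.5%) had a corner loop, 44 (14.6%) were 700 kb or longer and 39 (12.9%) were 100 kb or shorter. The share that was 700 kb or longer was 8.72% beside domains with a corner loop and 8.78% of the list. Domains of the same kind joined end to end formed 66 pairs and no longer row. The longest pair, of 675 and 425 kb, lay at 77810001 to 78920000 of chromosome 9. The next were pairs of 310 and 575 kb (chromosome 8, 102335001 to 103225000) and of 645 and 235 kb (chromosome 7, 17740001 to 18625000).

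Some lay inside a larger domain. There were 154 of these (7.56%, 6.49 to 8.79%), against 7.63% of all 3711 and 6.18% (4.67 to 8.15%) of domains with a corner loop. The smallest domain around each had a median length of 365 kb, and 67 of the 154 (43.5%) came within 10 kb of one of its ends, while 21 were over 50 kb from both. The surrounding domain had a corner loop in 28 cases (18.2%) and none in the rest, while 75.6% of all 3711 domains had none. The 154 had 144 different surrounding domains, so some were counted more than once. The inner domain scored a median of 1.11 and the surrounding one 1.25, and the inner score was the higher in 52 of 154. Positions and scores inside a larger domain are not given here for domains with a corner loop, so neither can be called particular to these domains.

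Chromosomes differed in how many of their mid-length domains lacked a corner loop. The share ran from 65.4% on chromosome 6 to 84.6% on chromosome 16, with a median of 73.4%. Chromosome 16 also had the fewest loops, 0.222 up to 2 Mb per Mb, and chromosome 10 the most, 0.791. Over the 21 chromosomes, Spearman's rho between this density and the share was -0.384, given as a description, since the loops that make up the density also set the share. The median length of these domains ran from 170 kb on chromosome 17 to 327.5 kb on chromosome 19, their median score from 1.12 on chromosome 18 to 1.25 on chromosome 12, and the share with a loop at exactly 1 end from 17.8% on chromosome 13 to 37.3% on chromosome 10. The share with no loop at an end, inside or across, which counts very long crossing loops, differed widely between chromosomes. It was 1.36% on chromosome 1, 2.73% on chromosome 11 and 4.65% on chromosome 12, against a median of 59.3% and a highest share of 78.7% on chromosome 18.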

How the data were processed

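In situ Hi-C was done on 2 libraries of HEK293T cells. The submitters' processing notes name hg19, BWA 0.7.8, Picard and FastQC 0.11.7 without roles. In the sources used here, no domain caller, compartment method or way of combining the libraries is given. Per the file headers, the authors' domain table gives scores per domain on 5 kb bins, the loop table (HiCCUPS, per the file name) the count of observed contacts, with the deposited expected contacts of 4 local neighbourhoods. The deposited compartment score has 1 value per 1 Mb bin.

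Domains and loops were set against each other by position (Python 3.11.15, pandas 2.3.3, scipy 1.17.1), counted from 1. The geometry was tested on simulated data with known answers. Fold is observed contacts over the donut expectation, with exact Poisson intervals. Shares have Wilson intervals at 95%. An end loop has an anchor centre within 50 kb of that end. All groups are sets of domains, with no test. The domains and the lists named here were chosen with earlier results of these data known. Named regions were those with the highest and lowest scores, the longest, those with most loops or contacts at an end, most loops inside, the longest rows and those nearest the limits, ties by position. Chromosomes 22 and X, with 134 domains, were not used. No gene or sequence is given, because no hg19 annotation or genome was used here.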

Additional observations from a re-analysis of the deposited data

How the results depend on the processing

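Of 45 alternatives, 23 left the value within the limit set for it (1.5 times for a number, the main interval for a share or median) and 22 did not; 18 of the 45 were chosen after seeing the data. The number of domains without a corner loop was 2036, ran from 1656 to 2361 under 8 of its 9 alternatives, and was 1292 with length limits of 150 and 500 kb, which take fewer domains by construction. The share with a loop at exactly 1 end was 27.1%, or 23% with a tolerance of 25 kb and 19.4% with 10 kb for ends and corners alike, which takes more domains, and 20.6% and 10.9% with the domains kept as they were. The share with no loop at an end, inside or across, 40.6%, became 43.8% and 43.9% with those tolerances (45.4% and 50.9% with the domains kept), 68% with loops up to 2 Mb only, and 38.3% in domains up to 300 kb. The median score, 1.18, was 1.21 with limits of 150 and 500 kb, 1.21 up to 300 kb and 1.23 with both sign scores at least 0.5. The share in positive bins, 65.4%, was 68.2% with both sign scores at least 0.5 and 69.4% up to 300 kb. Shared ends depended on the limit set for them: 0.196% of domains at 0 kb, 38.4% at 25 kb and 57.6% at 50 kb, and both ends 0%, 3.98% and 13.2%. Apart from what these changes of limit or set do by construction, the cause was not tested. No paired analysis was possible because the tables have no column per library, so neither library could be left out, and results come from no test. Depth sets which loops are listed, and total depth is unknown here.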

Other observations

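A few domains without a corner loop stood at the ends of multi-megabase loops. The 165 kb domain at 130695001 to 130860000 of chromosome 9 had 9 loops at its end, the most of any, all from 1 anchor 35 kb beyond it to anchors between 92210001 and 93640000, 37260 to 38680 kb away. They held 14 to 36 contacts. The enrichment over the donut was 108-fold to 359-fold, but 3.60-fold to 6.39-fold over the highest of the neighbourhood expectations. The 170 kb domain at 62960001 to 63130000 of chromosome 17 had 4 loops at its start, of 18550 to 19260 kb, with 32 to 85 contacts. Its score was 0.860, lower than 1.39 for the domain on chromosome 9. Of the 653 loops at ends of these domains, 25 were over 2 Mb.

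The longest of these domains, 690 to 695 kb, were mixed in score. A domain at 158430001 to 159125000 of chromosome 7, the last listed on it, scored 1.70 with sign scores of 0.521 and 0.953. One at 70950001 to 71645000 of chromosome 9 scored 1.45 with 0.786 and 0.511. Neither had a loop at an end, inside or across. On chromosome 3, that at 188970001 to 189665000 scored 0.676 and had a loop of 67 contacts at its end. Those on chromosome 4 (138025001 to 138715000) and chromosome 5 (151200001 to 151890000) scored 1.28 and 1.11.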
